A study of Caenorhabditis elegans with 12 samples.

Results

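The *sdz* genes (SKN-1-dependent zygotic transcript) were examined in *C. elegans* fed the Δ*lpp* mutant or its parent strain of *E. coli*. Members were the rows of the deposited count and TPM table whose gene name begins with sdz-, which gave 32 of the 46926 features, and all 32 are annotated as protein coding in the Ensembl annotation of WBcel235. The Δ*lpp* group held 6 libraries of wild-type N2 worms on the Δ*lpp* mutant, which lacks the gene for the major outer membrane lipoprotein, and the other held 6 libraries of N2 worms on BW25113, which carries *lpp*. RNA came from whole worms and was depleted of ribosomal RNA, so every cell type of the animal, and any embryos inside it, contributed to each library. How old the worms were when RNA was taken, and how many animals a library held, are not given in the sources used here, and nothing states that the libraries came from separate cultures, so the p-values measure only the spread between these libraries.

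SKN-1 is a maternally supplied transcription factor that sets the fate of the EMS blastomere, the early embryonic cell that gives rise to pharynx, body muscle and gut. It turns on the GATA factor genes *med-1* and *med-2*, which act through *end-1* and *end-3* in the gut (E) lineage and through *tbx-35* and *ceh-51* in the mesodermal MS lineage. Transcripts that embryos make in a SKN-1-dependent way received the name *sdz*, and for many of them no function is given in the files used here. In larvae and adults SKN-1 acts in the intestine, where it drives detoxification and glutathione genes under oxidative stress, and *sdz-8* is also known from that setting.

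Total counts were 21146884 to 23563531 in the Δ*lpp* libraries and 20254430 to 24442423 in the BW25113 libraries. Counts were scaled by TMM, a scaling that takes the bulk of the genes as level between the groups, and a gene was called where its log2 fold change passed 1 or -1 and its adjusted p lay below 0.05 (edgeR's quasi-likelihood test, Benjamini-Hochberg adjustment over 15266 tested genes). Each Δ*lpp* library had a TMM factor of 1.08 to 1.27, and each BW25113 library one of 0.794 to 0.988. These factors bear on each value given here, since without them the tested genes had a median log2 fold change of 0.50 in place of 0.05. A count of 0 still allows up to 3 counts, or 0.111 to 0.121 CPM in the Δ*lpp* libraries and 0.138 to 0.185 CPM in the BW25113 libraries, and this limit covers counting error only.

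Most *sdz* transcripts were scarce and were more abundant on the Δ*lpp* diet. CPM is the count scaled to a common library total, with the TMM factor. Of the 32 genes, 30 had a higher median CPM in the Δ*lpp* group, a share not given here for all genes. The 30 include *sdz-20*, *sdz-24* and *sdz-37*, whose fitted values were below 0. When every feature with a count was fitted, 27 of the 32 had a positive log2 fold change. The median over all those features was 0.11. In 8 of the 32 every Δ*lpp* library was above every BW25113 library, and 0 had the reverse. Among the 8 was *sdz-23*, with only 1 to 3 counts on Δ*lpp* and 0 on BW25113. Of all tested genes, 17.8% had no overlap with Δ*lpp* above, and 41.5% had none in either direction. The low-count filter of edgeR passed 19 of the 32 *sdz* genes. Of these, 7 were called higher in the Δ*lpp* group (36.8%), against 12.1% of all tested genes and 20.5% of the tested genes with a mean under 10 CPM. None was called lower (0 of 19, against 15.6% of all tested genes), and 0 had an unadjusted p under 0.05 in that direction with edgeR or DESeq2. In 7 of the 19 the groups did not overlap, with the Δ*lpp* libraries above (36.8%, against 17.8% of all tested genes). In bulk RNA of this kind, more cells that carry a transcript and more transcript per cell cannot be told apart.

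The filter itself favoured genes that were high in one group, so the shares among the 19 need care. Of these, 9 had all 6 BW25113 libraries over the filter's limit, 9 had 1 to 5 and *sdz-5* had none, whereas all 6 Δ*lpp* libraries were over the limit for every gene of the 19. Among the 9 that would have passed on the BW25113 libraries alone, 2 were called higher (22.2%). This is above the 12.1% of all tested genes and near the 20.5% of those with a mean under 10 CPM. Neither of these shares was limited to genes that pass on the BW25113 libraries alone. When every feature with a count was fitted, 9 of the 32 were called higher apart from *sdz-23*, which had too few counts for a fold change (28.1%, against 12.1% of the 21506 features fitted), and 0 were called lower, against 14.7%.

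**Figure D1:**
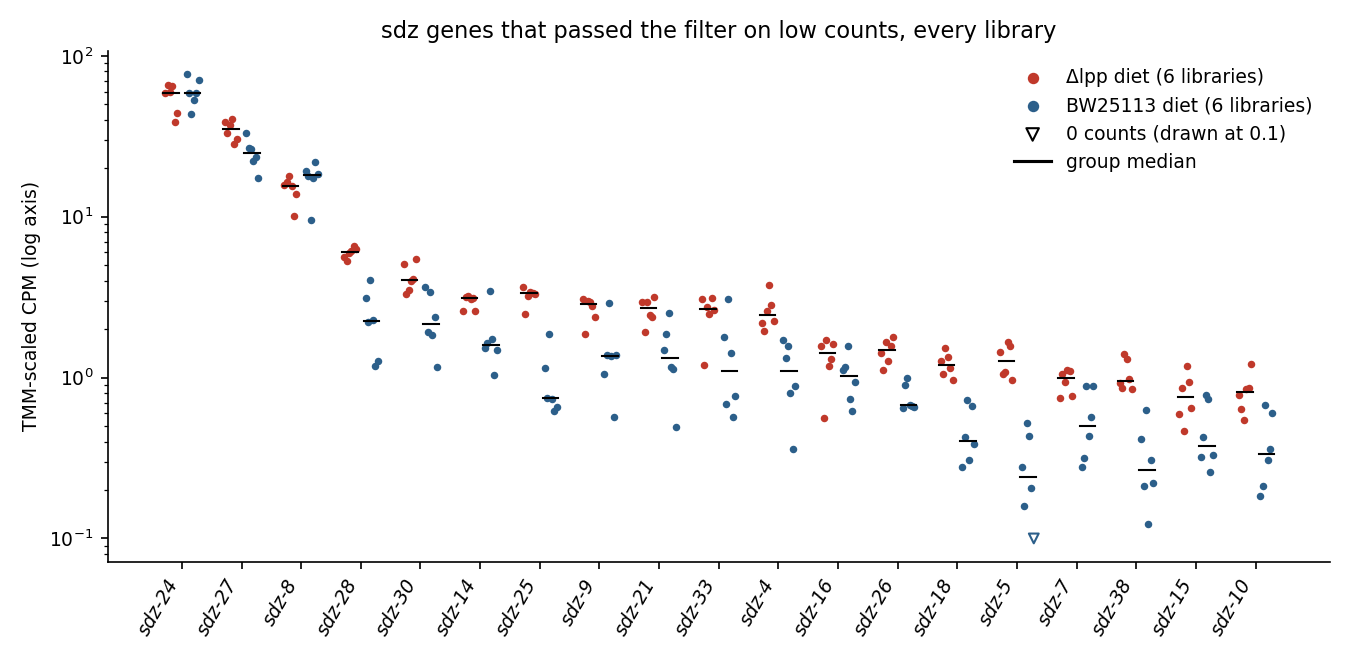
TMM-scaled CPM (log axis) of the 19 *sdz* genes that passed the filter, in order of mean level, with 6 points for the Δ*lpp* libraries on the left and 6 for the BW25113 libraries on the right of each gene, and a bar for each group median (an open triangle at 0.1 marks 0 counts). *sdz-24*, *sdz-27* and *sdz-8* stand above 9 CPM in every library, while the median of every other gene lies below 7 CPM in both groups.

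The level per gene length fell into a small abundant set and a large scarce one. In the authors' TPM values, *sdz-24* had 51.2 to 96.0 with a median of 78.4 in the Δ*lpp* libraries and 40.1 to 78.4 with a median of 50.4 in the BW25113 libraries. *sdz-27* followed with 55.3 to 83.5 (median 68.7) on Δ*lpp* and 23.1 to 50.5 (median 32.3) on BW25113. *sdz-8* came next with 15.4 to 27.5 (median 24.04) and 9.94 to 22.4 (median 18.7), in the same order of groups. *sdz-24* was above *sdz-27* in 4 of 6 Δ*lpp* libraries and in 6 of 6 BW25113 libraries, and *sdz-8* lay below both in every library. The next gene, *sdz-28*, had a median TPM of 5.63 on Δ*lpp* and 1.33 on BW25113, and *sdz-20* and *sdz-23* were the scarcest, at medians of 0.090 and 0.085 TPM on Δ*lpp* and 0.050 and 0 TPM on BW25113.

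Summed over *sdz-8*, *sdz-24* and *sdz-27*, the level was 121.8 to 195.7 TPM in the Δ*lpp* libraries and 85.7 to 151.4 TPM in the BW25113 libraries, and the groups overlapped. The other 29 genes summed to 42.6 to 51.4 TPM on Δ*lpp* and 9.63 to 26.7 TPM on BW25113, with a clear gap between the groups. On the TMM scale, which draws the groups together, the same 29 genes summed to 32.58 to 42.8 CPM (median 41.3) on Δ*lpp* and 12.8 to 32.65 CPM (median 17.95) on BW25113, and the groups met at their edges, where Δ*lpp* replicate 2 and BW25113 replicate 3 had nearly the same sum. These sums are descriptions over the chosen members and were not tested.

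**Figure D2:**
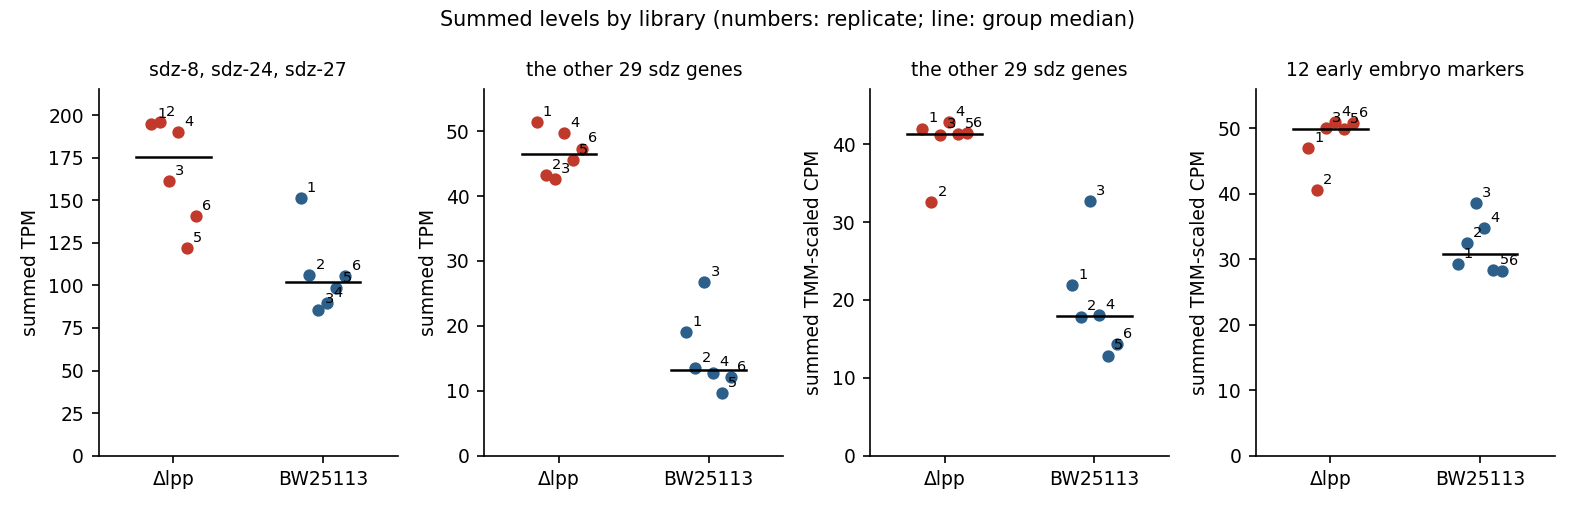
Summed level in each library (number: replicate, line: group median, axes from 0) of *sdz-8*, *sdz-24* and *sdz-27* in TPM, of the other 29 *sdz* genes in TPM and in TMM-scaled CPM, and of 12 early embryo marker genes in TMM-scaled CPM. The 29 scarce genes reach 42.6 TPM or more in each Δ*lpp* library and at most 26.7 TPM in a BW25113 library, and BW25113 replicate 3 is the highest of its group in the 3 panels other than that of the abundant genes.

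Of the abundant genes, *sdz-24* and *sdz-8* did not pass the test with TMM and *sdz-27* rose. *sdz-24* had 38.7 to 65.5 CPM (median 59.2) in the Δ*lpp* libraries and 43.8 to 77.2 CPM (median 58.7) in the BW25113 libraries, which gave a log2 fold change of -0.13 (standard error 0.145, edgeR adjusted p = 0.456). *sdz-8*, which SKN-1 activates in stressed worms, had 10.2 to 17.9 CPM (median 15.6) on Δ*lpp* and 9.49 to 21.8 CPM (median 18.2) on BW25113, with a value of -0.22 (standard error 0.168, adjusted p = 0.256 from edgeR). The groups overlapped for both. Both values were positive with library size only and in the TPM fits, up to 0.46 for *sdz-24* and 0.38 for *sdz-8*, where the median of all genes was higher too. Relative to that median, *sdz-24* was at -0.18 and *sdz-8* at -0.27, with TMM and with library size only alike. In both TPM fits *sdz-24* was higher on the adjusted p, as 18 of the 19 genes were. *sdz-8* missed it there (0.0678 with pseudocount 1 and 0.0693 with pseudocount 0.1, from limma). Without BW25113 replicate 3, the lowest of its group for *sdz-8*, that gene was lower in the Δ*lpp* group at -0.35 (edgeR adjusted p = 0.0208). *sdz-27* had 28.4 to 40.7 CPM (median 35.2) on Δ*lpp* and 17.3 to 33.3 CPM (median 24.9) on BW25113, overlapping ranges with a log2 fold change of 0.48 (standard error 0.135, adjusted p = 0.00475 from edgeR). It rose on the adjusted p but stayed short of the limit on the fold change, and passed that limit in limma fits at 1.05 for log2(TPM + 1) and 1.07 for log2(TPM + 0.1).

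The 7 called genes belonged to the scarce set. *sdz-5*, on chromosome II of WBcel235 from 3008700 to 3009948, reached 24 to 45 counts in each Δ*lpp* library and 0 to 10 in the BW25113 libraries, or 0.969 to 1.67 CPM (median 1.27) and 0 to 0.522 CPM (median 0.241). Every Δ*lpp* library was above every BW25113 library, and the log2 fold change was the highest of the 19, at 2.27 (standard error 0.383, adjusted p = 4.10e-05 from edgeR). *sdz-25*, on chromosome IV from 8405022 to 8406611, had 2.47 to 3.68 CPM (median 3.35) on Δ*lpp* and 0.6185 to 1.88 CPM (median 0.742) on BW25113, with no overlap. It rose by 1.74 on the log2 scale (standard error 0.245, edgeR adjusted p = 5.94e-06). *sdz-38*, a zinc finger gene that the MED factors activate in the MS lineage, lies on chromosome II from 9980886 to 9981860 and had 0.848 to 1.403 CPM (median 0.956) on Δ*lpp* and 0.123 to 0.626 CPM (median 0.265) on BW25113. Again the groups stood apart, at a log2 fold change of 1.69 (standard error 0.315, adjusted p = 0.000122 from edgeR).

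*sdz-18* (chromosome II, 1704904 to 1706485) had 0.969 to 1.52 CPM (median 1.202) on Δ*lpp* and 0.277 to 0.730 CPM (median 0.405) on BW25113, and rose by 1.37 on the log2 scale (standard error 0.265). *sdz-28* (chromosome II, 2131070 to 2132475), the most abundant of the called genes, had 5.28 to 6.60 CPM (median 6.04) on Δ*lpp* and 1.19 to 4.02 CPM (median 2.255) on BW25113, and rose by 1.34 (standard error 0.234). *sdz-4* (chromosome II, 958918 to 960169) had 1.95 to 3.78 CPM (median 2.44) on Δ*lpp* and 0.361 to 1.71 CPM (median 1.104) on BW25113, and rose by 1.22 (standard error 0.282). For these genes no BW25113 library reached the lowest Δ*lpp* library, and the adjusted p was 0.000181, 6.61e-05 and 0.000966 from edgeR, in the order given. *sdz-10* (chromosome II, 2771080 to 2772266) was the weakest call at 1.05 (standard error 0.329, adjusted p = 0.00869 from edgeR), with 14 to 30 counts on Δ*lpp* and 4 to 13 on BW25113, and its groups overlapped in CPM. Its call was lost, at 0.91 to 0.93, without Δ*lpp* replicate 6, BW25113 replicate 1 or BW25113 replicate 2.

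The value of *sdz-25* stands for a pair of genes. A second gene, listed in the table as *M116.1* and in the Ensembl annotation as another *sdz-25*, lies on the opposite strand of chromosome IV from 8410578 to 8412167, has the same span of 1590 bases, and carries the same count in all 12 libraries, some of them ending in 0.5. Together the copies had 132 to 198 counts per Δ*lpp* library and 23 to 72 in the BW25113 libraries, and which copy the reads came from cannot be told apart. Values that were not whole were also present for *sdz-28*, *sdz-33* and *sdz-35*, and their source was not tested. No other gene overlaps 27 of the 32, while *sdz-1*, *sdz-14*, *sdz-24* and *sdz-33* overlap a gene on the opposite strand and *sdz-13* a gene on its own. Whether the counting used strand is not given in the sources used here, so the values of these 5 are less certain.

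A further group rose without reaching the limit on the fold change. With the adjusted p alone, 15 of the 19 were higher in the Δ*lpp* group (78.9%, against 32.9% of all tested genes), the 7 called genes, *sdz-27* and 7 others. This share needs the same care as the calls, since the filter favoured genes that were high on Δ*lpp*. When every feature with a count was fitted, 19 of the 32 were higher on the adjusted p, *sdz-23* included. The share over all features is not given here for that fit. *sdz-26* had 1.12 to 1.78 CPM (median 1.49) on Δ*lpp* and 0.6455 to 0.991 CPM (median 0.674) on BW25113, with no overlap and a log2 fold change of 0.95 (standard error 0.212, adjusted p = 0.000713 from edgeR). *sdz-30* had 3.33 to 5.49 CPM (median 4.03) on Δ*lpp* and 1.16 to 3.64 CPM (median 2.14) on BW25113, and rose by 0.82 (standard error 0.234). *sdz-21* had 1.91 to 3.15 CPM (median 2.69) and 0.496 to 2.50 CPM (median 1.32) in the same order of diets, and rose by 0.86 (standard error 0.268). The highest BW25113 library entered the Δ*lpp* range for *sdz-21*, and for *sdz-30* BW25113 replicates 1 and 3 did.

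*sdz-9*, *sdz-14* and *sdz-33* had in common that BW25113 replicate 3 was the highest BW25113 library, near the top of the Δ*lpp* range or past it. It lay far above the others for *sdz-9* and *sdz-14*, while for *sdz-33* BW25113 replicate 1 followed at 1.80 CPM. *sdz-9* had 1.87 to 3.09 CPM (median 2.86) on Δ*lpp* and 0.567 to 2.92 CPM (median 1.37) on BW25113. *sdz-14* had 2.59 to 3.20 CPM (median 3.11) on Δ*lpp* and 1.03 to 3.44 CPM (median 1.58) on BW25113. *sdz-33* had 1.197 to 3.14 CPM (median 2.68) on Δ*lpp* and 0.567 to 3.08 CPM (median 1.095) on BW25113. Their log2 fold changes were 0.89, 0.71 and 0.87 (standard errors 0.275, 0.229 and 0.346), and *sdz-7* had a value of 0.76 (standard error 0.292), with 19 to 30 counts on Δ*lpp* and 6 to 17 on BW25113. With each library left out in turn, *sdz-33* missed the adjusted p in 7 of 12 fits (up to 0.0827 from edgeR) and *sdz-7* in 3 of 12 (up to 0.0729 from edgeR). *sdz-15* and *sdz-16* missed the adjusted p, at 0.73 (adjusted p = 0.0555 from edgeR) and 0.36 (adjusted p = 0.261 from edgeR). *sdz-16* had 0.561 to 1.72 CPM (median 1.43) on Δ*lpp* and 0.6185 to 1.57 CPM (median 1.02) on BW25113, ranges that nearly coincided.

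**Figure D3:**
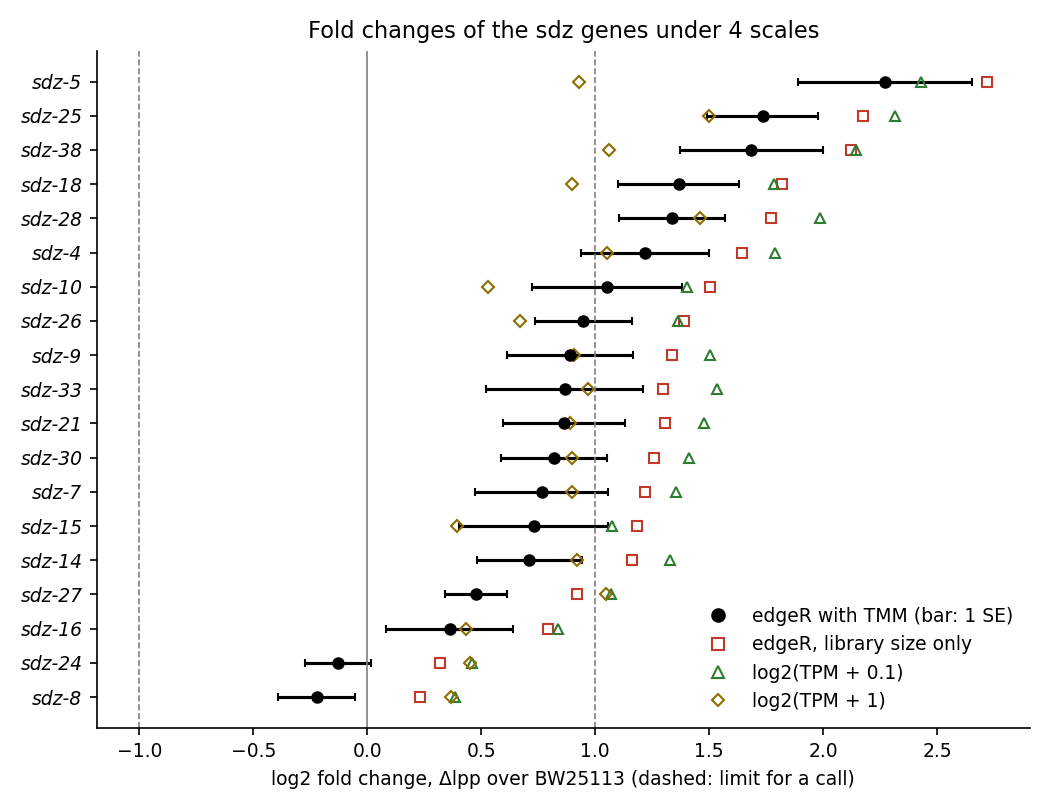
Log2 fold change (Δ*lpp* over BW25113) of the 19 *sdz* genes that passed the filter, from edgeR with TMM (circle, bar of 1 standard error), edgeR with library size only (square) and limma on log2(TPM + 0.1) (triangle) and log2(TPM + 1) (diamond). From *sdz-16* to *sdz-5* every value is above 0 on the 4 scales, whereas *sdz-24* and *sdz-8* are below 0 with TMM and above 0 on the others.

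The 13 genes below the filter had 1 to 26 counts per Δ*lpp* library and 0 to 14 per BW25113 library. In the fit without a filter *sdz-35* and *sdz-36* were called higher, at 1.87 (standard error 0.498, adjusted p = 0.00231 from edgeR) and 1.201 (standard error 0.369, adjusted p = 0.00759 from edgeR). *sdz-35* had 6 to 26 counts on Δ*lpp* and 0 to 8.47 on BW25113, and *sdz-36* had 10 to 25 and 2 to 9, in the same order. *sdz-13* missed the fold change (0.78, adjusted p = 0.0469 from edgeR). *sdz-23* had 1 to 3 counts in each Δ*lpp* library and 0 in each BW25113 library, and since both groups were at or under the limit of 3 counts no fold change is given. The remaining 9 (*sdz-1*, *sdz-6*, *sdz-11*, *sdz-12*, *sdz-19*, *sdz-20*, *sdz-31*, *sdz-32* and *sdz-37*) did not pass the adjusted p, and of these *sdz-6*, *sdz-20* and *sdz-37* had fitted values just below 0 (-0.08, -0.12 and -0.20). With at most 17 counts in any library, a p over the threshold does not show that these genes were level between the diets.

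The libraries of each diet were not alike in these genes. BW25113 replicate 3 was the highest of its group for 14 of the 19 tested genes and the lowest for 2, and Δ*lpp* replicate 2 was the lowest of its group for 9 and the highest for 1. Without BW25113 replicate 3 the number of *sdz* genes called higher was 12 of 21 tested in place of 7 of 19, the added calls being *sdz-9*, *sdz-21*, *sdz-26*, *sdz-33* and *sdz-36*, and without Δ*lpp* replicate 2 it was 9 of 19. Of all genes tested in these fits, 1980 of 15486 and 1881 of 15428 were called higher, in that order. BW25113 replicate 3 also had the highest sum of early embryo markers in its group (38.6 CPM, against 28.2 to 34.8 CPM in the other BW25113 libraries) and Δ*lpp* replicate 2 had the lowest in its own (40.5 CPM, against 47.0 to 50.9 CPM in the other Δ*lpp* libraries). The order was not kept in other libraries. BW25113 replicate 1 came next for the 29 scarce *sdz* genes (21.9 CPM) but had 29.2 CPM of these markers. BW25113 replicate 4 had 18.1 CPM and 34.8 CPM, in the same order. The part of these markers in the result was not tested.

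The position of the genes was uneven. Chromosome II held 15 of the 32 (46.9%), against 17.3% of the protein-coding genes in the table, and 12 lay between positions 658669 and 3877974 at its left end. A limit of 4000000, chosen after the positions were seen, took in 5.08% of the protein-coding genes and 37.5% of the *sdz* genes. Among the 12, 8 were tested and 5 were called higher (*sdz-4*, *sdz-5*, *sdz-10*, *sdz-18* and *sdz-28*), and of the 597 tested protein-coding genes in this stretch 151 were called higher (25.3%) and 78 lower, around a median of 0.30 on the log2 scale. The closest members, *sdz-9* and *sdz-10*, lie 102 bases apart on the same strand and *sdz-11* and *sdz-12* 19437 bases apart. Per length *sdz-9* was the more abundant of its pair, at a mean of 2.47 TPM on Δ*lpp* and 0.888 TPM on BW25113, while *sdz-10* had 0.820 TPM and 0.258 TPM in the same order.

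The genes of the SKN-1 circuit in the embryo were compared next, from a list of 23, of which 22 were found and 17 tested. None was called in either direction by edgeR with TMM or by DESeq2 with its own size factors (0 higher and 0 lower). Of all tested genes, edgeR called 12.1% higher and 15.6% lower. On the adjusted p of edgeR, 4 of the 17 were higher (23.5%) and 1 lower (5.88%), against 32.9% and 32.3% of all tested genes. With an unadjusted p under 0.05, 4 were higher and 2 lower by both tools. *skn-1* itself had 181 to 230 CPM (median 209.5) in the Δ*lpp* libraries and 165 to 234.8 CPM (median 218) in the BW25113 libraries, with a log2 fold change of -0.03 (standard error 0.0947, adjusted p = 0.773 from edgeR). With library size only the value was 0.42. Less the all-gene median, *skn-1* stood at -0.08 on both scales.

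The other maternal genes and the Wnt pathway genes that polarize EMS lay close to *skn-1*. The 6 maternal genes ranged from -0.12 to 0.41 with TMM and the 6 tested Wnt genes from -0.23 to 0.39, with 1 of each rising on the adjusted p (16.7%, against 32.9% of all tested genes). *pos-1*, which encodes an RNA-binding regulator of translation in the early embryo, rose by 0.41 (adjusted p = 0.0324 from edgeR), and *pop-1*, the TCF factor gene, by 0.39 (adjusted p = 0.00351 from edgeR).

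Of the 10 genes listed as zygotic, 5 did not pass the filter (*med-1*, *med-2*, *end-1*, *end-3* and *tbx-35*). *med-1* had 0 to 2 counts in each Δ*lpp* library and 0 to 3 in each BW25113 library, at or under the limit that a count of 0 allows, while *end-1* had 3 to 16 and 0 to 7 in the same order. In the fit without a filter *end-1* was called higher, at 1.23 (standard error 0.510, adjusted p = 0.0424 from edgeR), the only one of the 22 endomesoderm genes. Others on this list were better covered, and a place below SKN-1 is not implied for each. Which stage or tissue their transcripts came from was not tested. *pal-1*, the caudal homeobox gene of the posterior lineages, had 81.3 to 94.1 CPM (median 84.9) on Δ*lpp* and 38.3 to 69.1 CPM (median 44.4) on BW25113, and rose by 0.85 (standard error 0.120, adjusted p = 6.27e-06 from edgeR). *pha-4*, the FoxA gene of the pharynx, had 36.55 to 55.0 CPM (median 44.6) and 23.02 to 29.8 CPM (median 24.4) in the same order, and rose by 0.82 (standard error 0.104, adjusted p = 1.57e-06 from edgeR). Neither overlapped between the diets. *elt-2*, a GATA factor gene that the gut also transcribes after hatching, fell by 0.33 with TMM (adjusted p = 0.0193 from edgeR). Its value was 0.11 with library size only. Less the all-gene median, *elt-2* stood at -0.38 under TMM and -0.39 under library size only.

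Genes of the stress arm of SKN-1 had mostly negative values with TMM. Of 8 genes that SKN-1 activates in the intestine, 7 were lower on the adjusted p and 0 higher, against 32.3% of all tested genes lower. Of the 8, 1 was called lower (12.5%, against 15.6% of all tested genes). With library size only 4 were lower on the adjusted p and 1 of the 8 was positive, and in both TPM fits 3 were lower and 3 positive. Less the median of all genes, the median of the 8 stood at -0.74 for both edgeR scalings, and at -0.61 and -0.74 in the TPM fits with pseudocounts 1 and 0.1. *gst-10*, a glutathione S-transferase gene, had 57.6 to 81.8 CPM (median 71.1) on Δ*lpp* and 162 to 209 CPM (median 176) on BW25113, and fell by 1.38 on the log2 scale (standard error 0.105, adjusted p = 1.61e-09 from edgeR). It was still lower at -0.94 with library size only. *idh-1*, an isocitrate dehydrogenase gene, stood at the limit, at -0.9997, with 376 to 471 CPM on Δ*lpp* and 777 to 876 CPM on BW25113. *gst-4* had a value of -0.87 with TMM, and *gcs-1*, the gene of glutamate-cysteine ligase, one of -0.46 with TMM.

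Of 6 regulators of SKN-1 in stress, 3 rose (50.0%) and 1 fell (16.7%) on the adjusted p, against 32.9% and 32.3% of all tested genes. *xrep-4*, an F-box gene, rose by 0.63 (adjusted p = 0.000100 from edgeR) and *pmk-1*, the p38 kinase gene, by 0.59 (adjusted p = 0.00787 from edgeR). *sek-1*, its upstream kinase gene, fell by 0.56 with TMM (adjusted p = 0.000206 from edgeR). None of the 6 was called with TMM (0 higher and 0 lower). Over all 14 stress genes, 3 were higher and 8 lower at an unadjusted p under 0.05, with edgeR and with DESeq2.

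**Figure D4:**
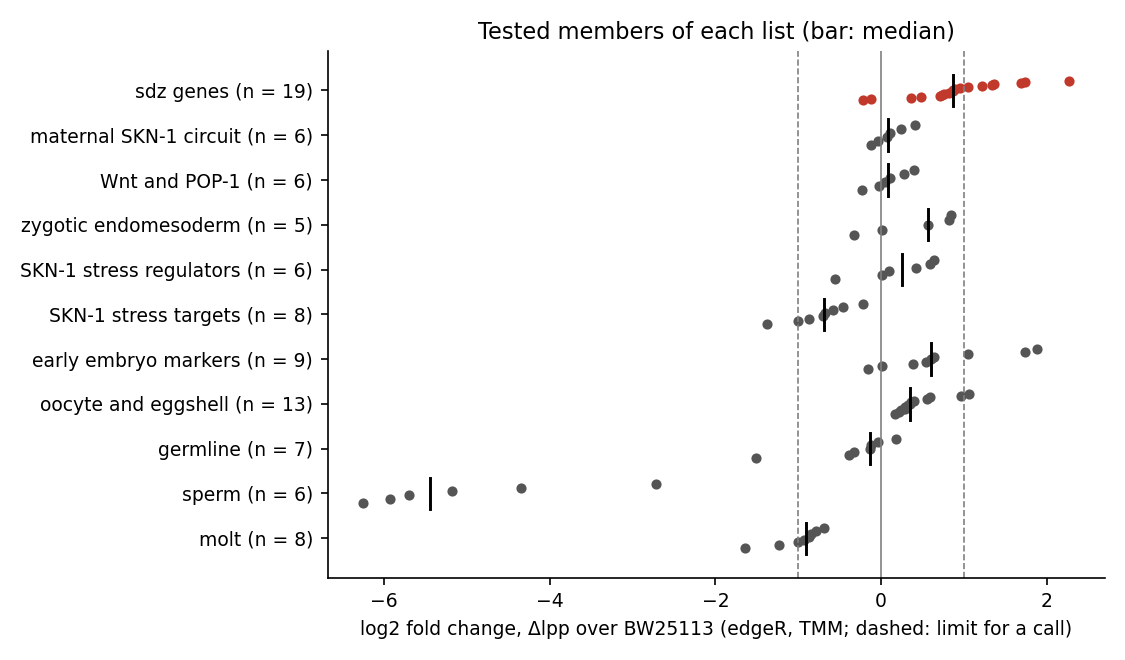
Log2 fold change (Δ*lpp* over BW25113, edgeR with TMM) of the tested members of each list, 1 point per gene, with a bar at the median and dashed lines at the limit for a call. The median is 0.87 for the *sdz* genes, 0.60 for the early embryo markers and 0.09 for the maternal circuit, and the SKN-1 stress targets, molt genes and sperm genes all lie below 0 on this scale, from -0.21 to -6.26.

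Markers of embryos, germ cells and larval stages are given because the *sdz* genes are embryonic transcripts measured in whole worms, and their calls can be read against the 12.1% of all tested genes called higher and the 15.6% called lower. The 12 early embryo markers summed to 40.5 to 50.9 CPM in the Δ*lpp* libraries and 28.2 to 38.6 CPM in the BW25113 libraries. Of the 9 tested, 3 were called higher (*cnd-1* at 1.88, *ceh-36* at 1.74 and *tbx-37* at 1.05, the first pair of which neurons also use, 33.3%) and 0 lower, and their median was 0.60. On the adjusted p alone 6 of the 9 were higher (66.7%) and 0 lower. The rest, *pes-1* (0.38), *tbx-38* (0.006) and *nob-1* (-0.16), did not pass it. *elt-1* and *hlh-1* had the highest medians of the list, at 19.2 and 9.58 CPM on Δ*lpp* and 11.8 and 5.91 CPM on BW25113. How far the sum of these markers reflects embryos was not tested. The 13 oocyte and eggshell genes summed to 9378 to 13210 CPM on Δ*lpp* and 5003 to 10130 CPM on BW25113, with 1 called higher (7.69%), 0 lower and a median of 0.35. The 8 sperm genes summed to 2.24 to 3.92 CPM on Δ*lpp* and 100.9 to 165 CPM on BW25113, with all 6 tested called lower. The 8 molt genes summed to 686 to 862 CPM on Δ*lpp* and 1006 to 1932 CPM on BW25113, with 3 called lower (37.5%). The 7 germline genes summed to 1261 to 1682 CPM on Δ*lpp* and 1546 to 2329 CPM on BW25113, with 1 called, *glh-1*, which was lower (14.3%). Of the 6 yolk protein genes 0 were called higher and 3 lower, while *vit-2* (0.82) and *vit-5* (0.55) were higher on the adjusted p. The Δ*lpp* libraries were uneven in the genes called lower, *vit-1* for one having a median of 166 CPM and a maximum of 863 CPM. Of 8 genes of intestine, muscle, neurons and hypodermis, all with counts in every library, 1 was called higher (*rab-3*, a neuronal gene, at 1.01) and 1 lower (*unc-54*, a muscle myosin gene, at -1.74). On the adjusted p alone, 3 of these 8 were higher (37.5%) and 5 lower (62.5%), against 32.9% and 32.3% of all tested genes. By that measure 7 of the 13 oocyte and eggshell genes were higher (53.8%) and 0 lower, and all 8 molt genes were lower. Of the 7 germline genes 0 were higher and 2 lower (28.6%). No list had a marker at 0 in all 6 libraries of a diet, although the sperm genes *spe-11*, *spe-38* and *spe-42* were at 0 counts in at least 1 Δ*lpp* library, and the embryo genes *hlh-25*, *hlh-26* and *hlh-27* in at least 1 library of each diet. The part of these markers in the *sdz* values was not tested.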

How the data were processed

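RNA was sequenced as paired reads from 12 libraries of whole N2 worms, 6 per diet, grouped by the sample titles. Reads were cleaned by the authors (Seqtk) and mapped with HISAT2 to WBcel235, the build in the submitters' processing notes. Stringtie gave the fragments of each gene and RNAnorm the TPM. Versions are not given in the sources used here. The authors deposited estimated counts, which are not normalized (8.97% are not whole), and TPM, which is scaled by gene length and library total. Columns of group means were not used.

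Estimated counts were rounded. Genes passing filterByExpr (minimum count 10, minimum total 15) were tested with edgeR 4.0.16 (TMM, quasi-likelihood, robust, no covariate) in R 4.3.3. Standard errors were taken from the fold change and its F statistic. Alternatives used DESeq2 1.42.0, the tool of the study, and limma 3.58.1 on log2(TPM + 1) and log2(TPM + 0.1), other scalings and filters, a replicate block and each library left out. Python 3.11.15 handled tables and figures. Positions came from Ensembl release 115. Within groups, all pairs of libraries differed by more than sampling noise (chi-square per degree of freedom 4.49 to 70.8). The fitting code was tested on simulated data.

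Members and lists were chosen with earlier results of these data known. By the naming rule, the text names *sdz* genes that averaged 1 CPM or more in a group (16), *sdz* genes called, *skn-1*, called genes of the SKN-1 lists and up to 6 others of each list. More than 6 others of the embryonic list are named, counting its genes below the filter. The others of each list, further *sdz* genes and the marker genes were named after their values were seen. One gene of the embryonic list was not analysed here.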

Additional observations from a re-analysis of the deposited data

Results flagged for a closer look

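A library far from the others of its group was found in 5 of the 38 sets of 6 CPM values checked for the tested *sdz* genes (Dixon's test at 95%, by which chance gives about 1 set in 20). BW25113 replicate 3 accounted for 3 of them. It was the lowest of its group for *sdz-8*, at 9.49 CPM against 17.5 CPM in the next library. It was the highest for *sdz-9*, at 2.92 CPM against 1.38 CPM, and for *sdz-14*, at 3.44 CPM against 1.73 CPM. Δ*lpp* replicate 2 was the lowest of its group for *sdz-25*, at 2.47 CPM against 3.23 CPM, and for *sdz-33*, at 1.2 CPM against 2.48 CPM.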

How the results depend on the processing

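The count of *sdz* genes called higher was 7 with TMM and with the RLE factors, DESeq2 and the replicate block. It was 8 with upper quartile factors, 10 without a filter (*sdz-23* included), 15 with library size only, 16 for log2(TPM + 0.1), 5 for log2(TPM + 1) and 2 of 11 with at least 10 counts in every library, and lay between 6 and 12 with each library left out. None of these fits called an *sdz* gene lower. The median *sdz* value, less the median over every tested gene, was 0.82 with TMM, 0.81 with library size only, 0.77 for log2(TPM + 0.1) and 0.39 for log2(TPM + 1). Over all genes, 3720 were called higher and 1747 lower with library size only, 4558 and 1593 for log2(TPM + 0.1), 2642 and 1244 for log2(TPM + 1), and 1032 and 1178 with the stricter filter. With each library left out, 1824 to 2293 genes were called higher and 2281 to 2520 lower. The value of *sdz-24* reversed to 0.32, 0.45 and 0.46 and that of *sdz-8* to 0.23, 0.37 and 0.38, in the order library size only, pseudocount 1 and pseudocount 0.1. *sdz-24* passed the adjusted p in both TPM fits and *sdz-8* in neither. On log2(TPM + 1) the calls of *sdz-5* (0.93), *sdz-10* (0.53) and *sdz-18* (0.90) were lost. *sdz-4*, *sdz-25*, *sdz-28* and *sdz-38* were called in every fit that tested them.

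Endomesoderm genes called higher numbered 3 with library size only, 1 with no filter, and 3 and 5 in the TPM fits with pseudocounts 1 and 0.1, against 0 with TMM. SKN-1 stress genes called higher numbered 2 with library size only and 2 and 3 in these TPM fits, and those called lower 2 with RLE, no filter, DESeq2 and the replicate block, 0 with library size only and 0 in each TPM fit, and 1 to 2 with each library left out. The cause was not tested.

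The replicate numbers gave little sign of paired libraries apart from replicate 1, whose libraries correlated best with each other (0.33). This check cannot show that same-numbered libraries were unrelated. Deviations of same-numbered libraries correlated at -0.17 to 0.33, over 0.1 in 1 of 6 pairs, and 2 of 12 libraries correlated best with their own number. With the replicate block, 1908 genes were called higher and 2356 lower, against 1849 and 2379 without it.

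Depth limits the scarce members: 13 of 32 had too few counts for the main test.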
